A study of Caenorhabditis elegans with 8 samples.

Results

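CstF50 RNAi in poly(A)-selected RNA is the comparison described here, gene by gene, by gene family, by chromosome and by expression level. It rests on 4 of the 8 RNA-seq libraries of the study, 2 from each of 2 groups of Caenorhabditis elegans. Its members are the genes that the authors tested, which are the 8513 of 44968 rows of their table with the test status OK. Of these, 8244 had a value above 0 in both groups and so have a fold change. Both groups were young adults that had been synchronized in liquid culture. The control group is labelled wild type, and the column heading places it as strain N2 on L4440, the empty RNAi vector. The other group is labelled RNAi CstF50, and its heading names the gene cpf-1. No mutation or transgene is named for either group. The other 4 libraries are of rRNA-depleted RNA from the same kinds of animals. The title of the study concerns the location of RNA polymerase II and of CstF along genes and operons of the worm.

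The cleavage stimulation factor, CstF, is a complex of the subunits CstF50, CstF64 and CstF77. It binds the U- or GU-rich element downstream of the cleavage site of a pre-mRNA and helps the cleavage and polyadenylation specificity factor, CPSF, to cut the transcript, after which a poly(A) tail is added. In C. elegans many genes lie in operons, where the same machinery makes the 3' ends of upstream genes while trans-splicing onto a spliced leader makes the 5' ends of downstream genes. Poly(A) selection captures the tailed products of this process.

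For each gene the authors' deposited table gives 1 FPKM value per group, that is, fragments scaled to transcript length and to the number of mapped fragments. No value per library was used, so no standard deviation can be given for any FPKM below, and the depth of the libraries is unknown. The only error is a standard error (SE) of the log2 fold change, implied by the authors' own p-value, with a median over genes of 0.64. Pairs of FPKM values are given with wild type first. No label says that the libraries of a group came from separate cultures, so these p-values may measure technical spread alone. In RNA from whole animals, fewer cells of a type and less RNA per cell cannot be told apart. A gene is called higher or lower where the authors' q-value, a p-value adjusted over all tested genes, was under 0.05. The FPKM values were lower in RNAi for most genes, with a median log2 fold change of -0.90. Every "recentred" log2 fold change below has this median subtracted, so that 0 stands for the typical gene. The same difference from the median was also tested with the implied SE, and this is called the recentred test.

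The gene targeted by RNAi was not lower in the libraries labelled RNAi. The authors' deposited table lists cpf-1 at 50.5 FPKM in wild type and at 67.8 in RNAi, with a recentred log2 fold change of 1.32 (implied SE 0.59) and a q-value of 0.613. Its value covers a locus that the table shares among 4 genes, on chromosome II from 8594298 to 8602421 (ce10). In the rRNA-depleted libraries, whose conditions A and B carry no treatment name, the authors' deposited table calls it higher in B. There cpf-1 is listed at 1695 in A and at 8662 in B as normalized counts, with an adjusted p of 0.00296. Thus its level does not check the label, and every direction below is that of the libraries labelled RNAi. Its partners cpf-2 (CstF64) and suf-1 (CstF77) had recentred values of 0.52 (implied SE 0.71) and 0.38 (implied SE 0.54). Neither passed a test.

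Tested collagen genes, tested sperm genes and, less far, cytosolic ribosomal protein genes had higher values in RNAi than the median gene. The medians of most other families lay close to it. Collagen and sperm genes low in wild type were tested only where their RNAi values were high, which builds in part of this difference. The 2 groups shared the broad order of gene levels, with a Spearman correlation of 0.835 across 8244 genes, which are not independent replicates. Of these genes 6111 (74.1%) lay within 2-fold of the median. The authors' test called 1427 genes, 16.8% of those tested, with 266 higher (3.12%) and 1161 lower (13.6%) in RNAi. In the recentred test this split turned round, with 465 genes higher (5.64%) and 42 lower (0.509%). All 263 genes called higher with values above 0 in both groups also passed as higher in the recentred test. Of the 1161 called lower, 42 did (3.62%). A call of "lower" below is therefore a statement about FPKM as deposited, and the recentred result is given beside it. In simulated data the recentred test called 40 of 100 genes given a log2 change of 2. A gene that did not pass it may still differ from the median gene.

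**Figure D1:**
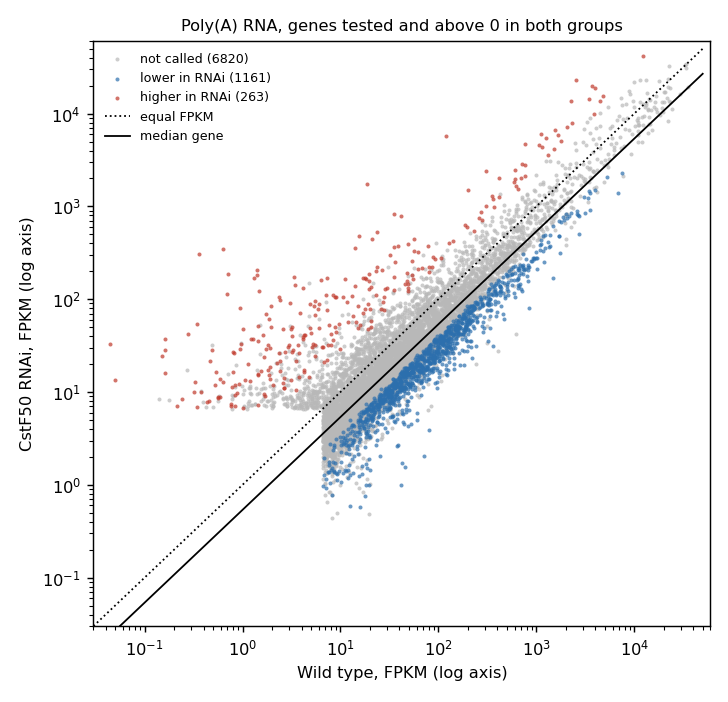
FPKM in wild type (horizontal) against FPKM in CstF50 RNAi (vertical), both on log axes, for the 8244 tested genes above 0 in both groups. Each point is 1 gene, the dotted line marks equal values and the solid line the median gene; most of the 1161 genes called lower (blue) run close under the solid line, while the 263 genes called higher (red) spread far above it, down to wild-type levels below 1 FPKM.

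Large differences lay mostly above the median gene. Relative to the median gene, 545 genes were more than 4-fold higher and 94 more than 4-fold lower, and beyond 16-fold there were 162 against 4. The highest was dpy-13, which encodes a cuticle collagen that sets body shape, at a recentred log2 fold change of 10.65 (implied SE 1.37). Of the 12 genes with the largest called rise, 10 were collagens: dpy-13, col-162, col-73, dpy-5, col-17, col-161, col-112, sqt-1, col-49 and dpy-4. The remaining ones, Y82E9BR.20 and C50E10.1, are known by sequence name. Those 12 genes had wild-type values from 0.0444 to 1.39 FPKM and RNAi values from 13.5 to 350 FPKM by the authors' deposited table, so every one of these folds is against a level near the bottom of the scale.

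The genes with the largest called fall were of another kind. Of these 12, 8 have a sequence name only, and the 4 with a name are pugs-11, clc-11, hrg-11.3 and cdr-5, a member of the cadmium-responsive gene family. The authors' deposited table lists cdr-5 at 37.8 FPKM in wild type and at 2.65 in RNAi, with a recentred log2 fold change of -2.94 (implied SE 0.77) and a recentred adjusted p of 0.00381. The lowest of those called, C01G10.6, had a recentred log2 fold change of -4.51 (implied SE 1.36) and a recentred adjusted p of 0.0187. Wild-type levels of the 12 ran from 12.4 to 79.8 FPKM by the authors' deposited table, and 7 of them passed the recentred test as lower.

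The table tests a gene only where at least 1 group is well expressed, and this shapes what can be seen by level. None of the 35940 rows without a test (status NOTEST) exceeded 6.59 FPKM in either group. A gene with a low mean was therefore tested only because 1 group was high. By the geometric mean FPKM of both groups, all 65 tested genes of 1 to under 3 FPKM had a group below 3 FPKM. Of them 27 were called higher and 7 lower, with a median recentred log2 fold change of 4.38 (quartiles -1.62 and 5.38). The filter built these large values in, and no weight rests on them. The 1 tested gene under 1 FPKM was Y82E9BR.20.

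Above that range the median gene changed little with level. Genes of 3 to under 10 FPKM numbered 1835, with 59 called higher, 133 lower and a median recentred log2 fold change of -0.21. In 458 of these 1835 genes 1 group was still below 3 FPKM, against 16 of the 2666 genes of 10 to under 30 FPKM. The latter had 59 higher and 363 lower calls and a median of -0.03. Among 2099 genes of 30 to under 100 FPKM there were 50 higher and 406 lower calls, and the median was -0.02. The 1578 genes at 100 FPKM or more had 67 higher and 252 lower calls and a median of 0.20 (quartiles -0.30 and 0.81). The share called lower was 7.25% at 3 to under 10 FPKM and 19.3% at 30 to under 100 FPKM, and the median implied SE was 0.87 and 0.57. Since the tests of abundant genes were the more precise, the share called does not order the sizes of the changes. With ranges set by the level of 1 group the medians moved: at 100 FPKM or more it was 0.01 by wild-type FPKM and 0.46 by RNAi FPKM.

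**Figure D2:**
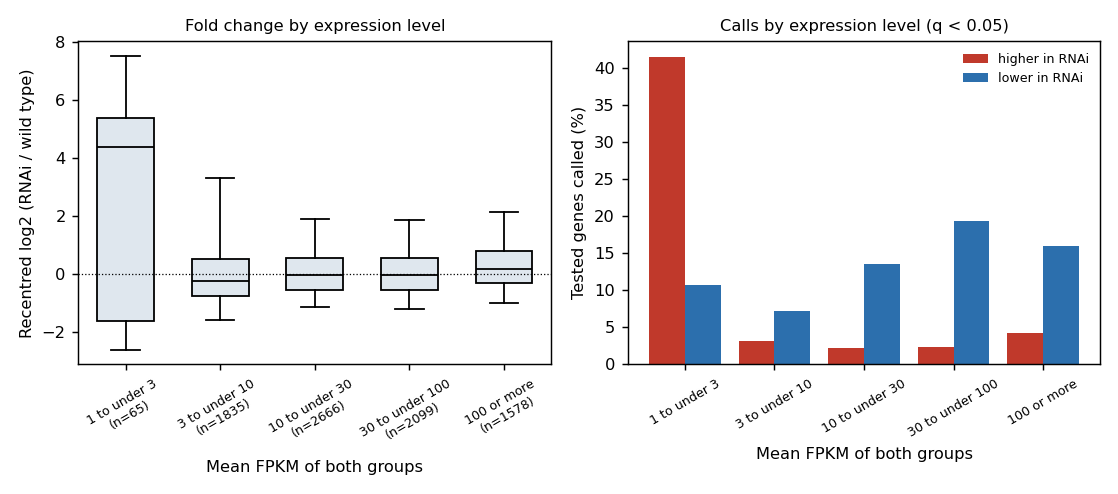
Recentred log2 fold change (left; boxes show quartiles with the median line, whiskers the 5th and 95th percentiles) and percent of tested genes called higher or lower (right), by the geometric mean FPKM of both groups. From 10 to 100 FPKM the medians lie within 0.03 of the median gene, and the lowest range shown is set by the filter on low values.

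The most abundant RNAs took a larger share in RNAi. The 100 top rows held 53.6% of the summed FPKM in wild type and 60.05% in RNAi, and 78 rows were in both lists. At 100 FPKM or more there were 2023 rows in wild type and 1396 in RNAi in the authors' deposited table. Of the 8 most abundant genes called higher, 6 encode ribosomal proteins: rpl-41.2, rplp-2.1, rps-14, rpl-13, rla-1 and rps-26. The others were far-2, a fatty acid and retinol binding protein secreted by nematodes, and the collagen col-122. The authors' deposited table has far-2 at 3734 FPKM in wild type and at 19759 in RNAi, a recentred log2 fold change of 3.30 (implied SE 0.60). Among the 8 most abundant genes called lower, pfn-1, which encodes the actin-binding protein profilin, went from 6832 to 1408 FPKM by the authors' deposited table. At a recentred -1.38 (implied SE 0.45) it was the 1 of these 8 to pass the recentred test, with an adjusted p of 0.0374. The remaining 7 were icd-1 (a subunit of the nascent polypeptide-associated complex), the invertebrate lysozyme gene ilys-5, ucr-11, asg-1, F56H9.2, F23D12.11 and the Y-box gene cey-3. Their recentred values ran from -0.80 to -0.33.

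By chromosome the medians lay close together. The median recentred log2 fold change was -0.06 on chromosome I (1575 tested genes), -0.03 on II (1484), 0.00 on III (1492), 0.03 on IV (1474), 0.12 on V (1510) and -0.06 on X (967). The lower quartiles of these chromosomes lay between -0.62 and -0.49 and the upper quartiles between 0.53 and 0.77, so that their ranges overlapped almost wholly. Chromosome IV had the highest share of genes called higher, 4.55% (67 genes), and X the lowest, 2.38% (23 genes). Collagen and sperm genes made up 28 of the 67 on chromosome IV, where 16 of the called sperm genes lie. Without these families the share was 2.74% on IV and ranged from 1.93% on II to that value over the nuclear chromosomes. The share called lower was 16% on I (252 genes) and 10.03% on X (97 genes). Genes on X also had the lowest median level, 16.1 FPKM against 26.2 FPKM on I, and the largest median implied SE, 0.72 against 0.60. Whether level and precision set this difference in share was not tested.

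**Figure D3:**
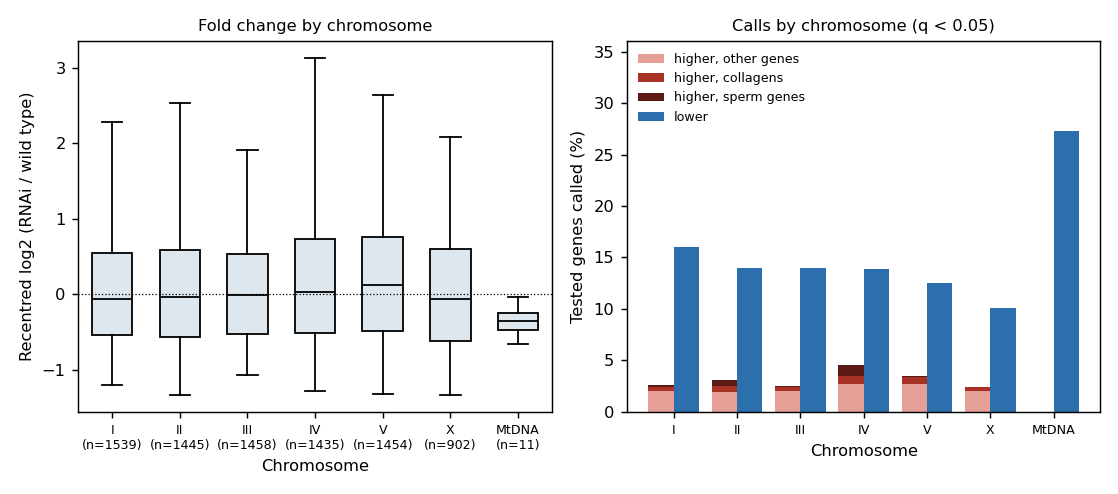
Recentred log2 fold change (left; boxes show quartiles with the median line, whiskers the 5th and 95th percentiles) and percent of tested genes called (right) by chromosome. The nuclear chromosomes have medians from -0.06 to 0.12, and most of the excess of higher calls on IV falls in collagen (middle red) and sperm genes (darkest red).

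Transcripts of the mitochondrial genome (MtDNA) were mostly a little below the median gene. Of 11 tested, 10 had recentred values below 0, the median was -0.35, and 3 were called lower. One of these 3 is ctb-1, the cytochrome b gene, with 158 and 53.6 FPKM (wild type, then RNAi) by the authors' deposited table and a q-value of 0.0146. None of the 11 was lower in the recentred test. The exception in direction was MTCE.7, which the table gives at 32.3 and 55.7 FPKM, a recentred 1.68 (implied SE 0.49) that passed as higher in the recentred test.

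Genes called higher were spread along the chromosomes, and the share called lower varied. In windows of 1 Mb with at least 20 tested genes, from 0% to 24.8% were called lower, against 13.6% of all tested genes. Of 101 windows of 1 Mb with at least 20 tested genes, 8 held no gene called higher and 8 held 6 or more. The 8 windows with 6 or more together held 60 of the 266 genes called higher, with 76 to 155 tested genes in each. Of all tested genes 3.12% were called higher. Window medians ran from -0.42 to 0.61. The richest window, from 4 to 5 Mb on chromosome II, held 10 of them among 102 tested: the collagens col-17 and col-73, the sperm genes msp-3, msp-40, msp-152, nspd-4 and nspd-5, the prefoldin subunit gene pfd-2, ttr-41 and C33F10.1. Windows of chromosome IV starting at 9 and 10 Mb held 8 and 9, with 5 and 4 sperm genes. Major sperm protein genes are known to be clustered on chromosomes II and IV, so the genes of a window are not independent.

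By gene class, protein-coding genes made up 8046 of the tested rows, with 259 higher (3.22%) and 1136 lower (14.1%) calls. Non-coding RNA genes of the class ncRNA made up 266 rows, with 3 higher and 4 lower. Many of these are listed at 0 in a group: 88 of the 154 tested rows listed at 0 in wild type and 93 of the 115 listed at 0 in RNAi belong to that class. An exact 0 in such a table can be a failed estimate, and these genes have no fold. Where the table's locus held another gene of at least 1 FPKM, reads could not be assigned with the same certainty. Such shared loci held 2278 tested genes with 27 higher (1.19%) and 194 lower (8.52%) calls. The 6235 genes at loci not shared had 239 higher (3.83%) and 967 lower (15.5%). The median implied SE was 0.764 at shared loci and 0.605 at the others.

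The 48 gene families below were formed from gene names and take every member with a matching name. They cover 1558 tested genes, with 124 called higher and 199 lower, while 3749 named genes in no family had 70 higher and 594 lower calls. The other 3206 genes have a sequence name only, with 72 higher and 368 lower. Of the 44 families with at least 10 tested members, 30 had a median within 0.5 of the median gene on the recentred log2 scale and 40 a median within 1. The families beyond that were both collagen families and both sperm families, all higher. Their 165 tested genes had a median of 3.61, with 78 higher and 7 lower calls. Members low in wild type were tested only where their RNAi values were high, so part of this median is built in. Untested were 70 of 161 col genes, 14 of 35 msp genes and 43 of 81 other sperm genes. The 8348 tested genes outside them had a median of -0.02, with 188 higher and 1154 lower calls. In 23 families no gene was called higher, and of their 636 tested members 6 were higher at an unadjusted p under 0.05 in the authors' Cuffdiff test. In 41 families no gene was lower in the recentred test, and of their 1332 tested members 47 were lower there at an unadjusted p under 0.05. In 5 families no gene was called lower, with 7 of 146 tested members lower at an unadjusted p under 0.05.

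**Figure D4:**
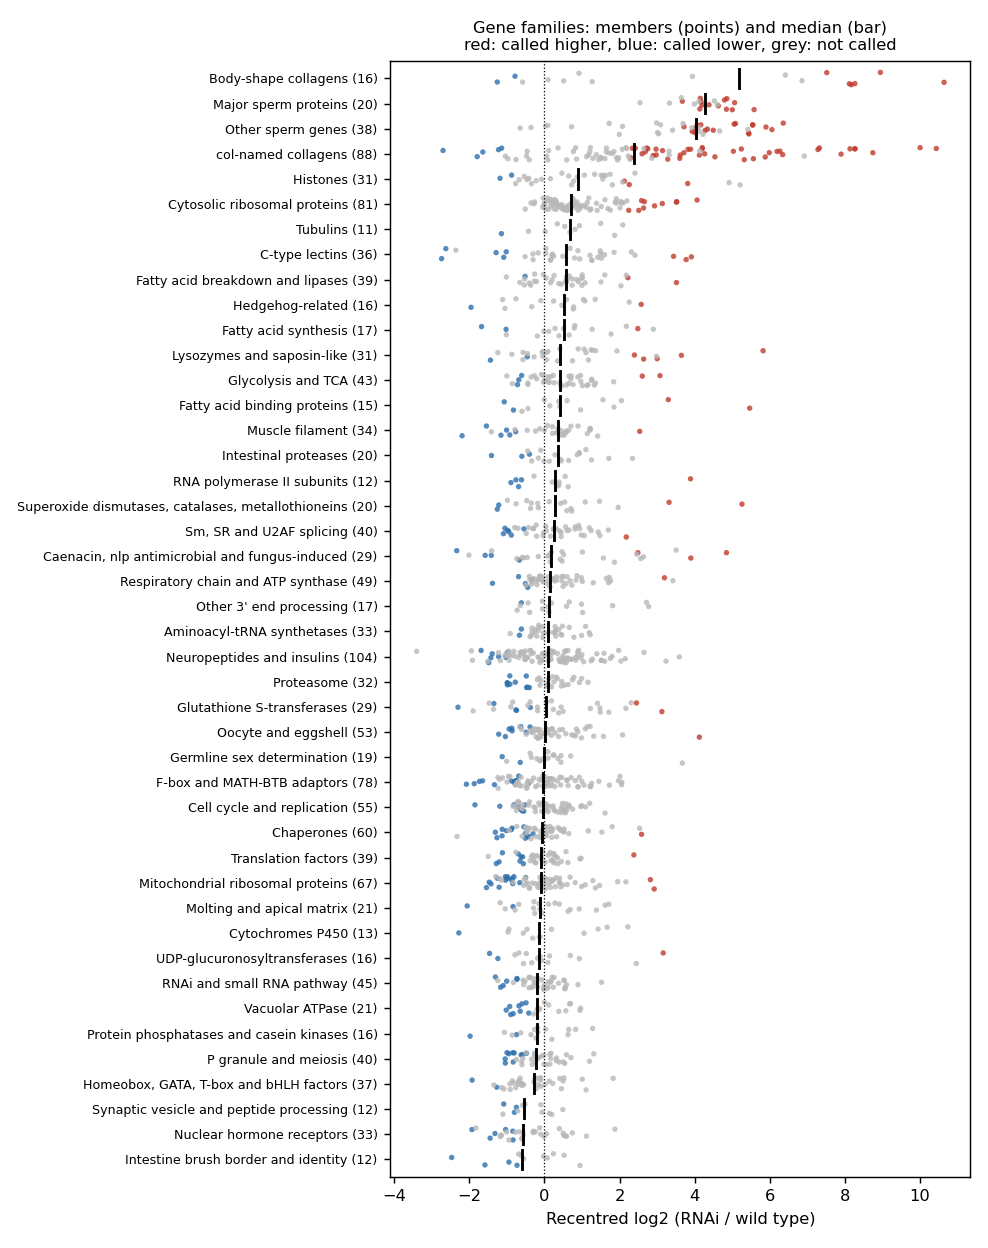
Recentred log2 fold change of each tested gene above 0 in both groups (points) and the family median (bar), for the families with at least 10 tested members; the number of genes plotted is in brackets. Red points were called higher and blue points lower by the authors' q-value, and the dotted line is the median gene; collagen and sperm families stand to the right, and most other families straddle the line.

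Collagens form the cuticle of the worm, which is made anew by the epidermis at each molt. Of 161 genes named col in the table, 91 were tested, with a median recentred log2 fold change of 2.38. Of these, 42 were called higher (46.2%) and 5 lower (5.49%), against 3.12% and 13.6% of all tested genes. In the recentred test 50 were higher and 1 lower. The family was far from uniform. In col-139 the value went from 15.3 to 486 FPKM by the authors' deposited table, a recentred 5.88 (implied SE 0.71, q = 3.58e-09). In col-122 it went from 3443 to 14527 FPKM there, a recentred 2.97 (implied SE 0.53). In col-135, by contrast, it went from 18.5 to 1.53 FPKM by the authors' deposited table, a recentred -2.70 (implied SE 0.88), and this was the 1 collagen lower in the recentred test, with an adjusted p of 0.0357. The genes col-147 and col-165 were called lower at recentred values of -1.79 and -1.14, but did not pass the recentred test (adjusted p of 0.129 and of 0.41). Thus collagens nearly absent from wild type and collagens already abundant there were both called higher. Of the 70 untested col genes, none exceeded 6.22 FPKM, 35 had the larger value in RNAi, 21 in wild type and 14 were at 0 in both. A col gene with a low wild-type value was tested only where its RNAi value was high, so the median is not that of the whole family.

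Collagens whose mutants change body shape (dpy, sqt, rol and bli genes) split into 2 sets. Of 16 tested, 6 were called higher and 2 lower. The higher ones were dpy-13, dpy-5, dpy-4, sqt-1, rol-6 and col-112, which RefSeq names bli-6, all below 1.4 FPKM in wild type in the authors' deposited table and at recentred values from 7.52 to 10.65. The lower ones, dpy-17 and dpy-10, had 655 and 27.3 FPKM in wild type in the authors' deposited table. Their recentred values were -0.78 (implied SE 0.51) and -1.26 (implied SE 0.76), and neither passed the recentred test. Between these sets, dpy-2, dpy-3, dpy-7, dpy-14 and sqt-3 were not called, with recentred values from -0.58 to 1.27. The genes rol-8, sqt-2 and bli-2 lay high at 3.94, 6.86 and 6.42 and were not called either, all with wild-type values of at most 4.17 FPKM by the authors' deposited table. The collagens dpy-2, dpy-3, dpy-7 and dpy-10 are known to act together in the annular furrows, whereas dpy-5 and dpy-13 belong to a set known to be expressed later in the molt cycle. The family median of 5.18 lies between the sets and describes neither. Genes as low in wild type as the 6 higher ones were tested only because their RNAi values were high. The split and the size of these values are therefore partly built in by that filter.

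The other cuticle families had few tested members. Cuticlins, insoluble cuticle proteins outside the collagen family, had 5 tested members of 36, with 2 called lower and a median of -1.46. The lower ones were cut-2, with 813 and 158 FPKM (wild type, then RNAi) by the authors' deposited table, and cut-3, with 93.0 and 12.5 FPKM there. Their recentred values were -1.46 (implied SE 0.52) and -2.0 (implied SE 0.77), and neither passed the recentred test (adjusted p of 0.0711 and of 0.114). Molting and apical matrix genes had 21 tested members, none higher, 2 lower and a median of -0.12. These 2 were the nuclear receptor gene nhr-23, a regulator of the molt, and the astacin protease gene nas-3. Hedgehog-related genes, which in nematodes encode secreted proteins of the epidermis, had 16 tested members with a median of 0.53. Of these grd-3 was called higher, from 274 to 879 FPKM by the authors' deposited table, and grd-10 lower, from 144 to 19.96 FPKM there. Over all tested genes 3.12% were called higher and 13.6% lower, so single calls among so few members set none of these families apart.

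Major sperm proteins are the motility proteins and the oocyte-maturation signal of nematode sperm. Of 35 msp genes 21 were tested, and the median recentred log2 fold change was 4.29. Of these, 13 were called higher (61.9%, against 3.12% of all tested genes) and none lower. All 20 with a fold change lay between 2.55 and 5.58. Of those called, msp-76 had the highest levels, 23.5 and 222 FPKM by the authors' deposited table. In msp-64 the value went from 5.52 to 95.1 FPKM by the authors' deposited table, a recentred 5.0 (implied SE 0.96). The copies are nearly identical in sequence, so reads can be split among them and their single values are uncertain. Other sperm genes showed the same direction, with 18 of 38 tested called higher (47.4%), none lower and a median of 4.05. Among them, spch-1 and spch-3, which encode protamine-like sperm chromatin proteins, had recentred values of 5.44 (implied SE 0.96) and 5.55 (implied SE 1.01). The nematode-specific peptide gene nspd-1 had 5.90 (implied SE 1.10). Not every sperm-related gene was high. The sperm gene transcription factor spe-44, listed under its older name tag-347, had 19.4 and 6.66 FPKM (wild type, then RNAi) by the authors' deposited table, a recentred -0.65 that was not called. The membrane-trafficking gene spe-39 had a recentred -0.36 and was not called either. None of the 14 untested msp genes exceeded 6.43 FPKM. Of these, 9 had the larger value in RNAi and 5 were at 0 in both. A sperm gene with a low wild-type value was tested only where its RNAi value was high, so these medians are not those of whole families.

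Genes were also grouped by name prefix. Of 103 prefixes with at least 8 tested members, holding 1812 genes, 5 had a median recentred log2 fold change above 1 and none below -1. They were nspd (5.06), msp (4.29), ssp (4.16), col (2.38) and nspc (1.51). The msp, col, nspd and ssp genes are those of the families above, with the same filter on low values, so only nspc adds to them. The nspc genes are named for a nematode-specific peptide family.

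RNAs of the oocyte, the embryo and cell division had medians near that of all genes. The 53 tested oocyte and eggshell genes had a median of 0.00, with 1 called higher and 8 lower. The higher one was cpg-7, which encodes a chondroitin proteoglycan, at 32.2 and 302 FPKM (wild type, then RNAi) by the authors' deposited table (recentred 4.13, implied SE 0.92). Among the lower ones were egg-6, trcs-1 and the oogenesis gene daz-1, at recentred values from -0.94 to -0.86. P granule and meiosis genes had 40 tested members, none higher and 10 lower, with a median of -0.23. That is 25% called lower, against 13.6% of all tested genes. Among them were meg-1, a P granule regulator, and syp-2 and syp-5, which encode parts of the synaptonemal complex. Cell cycle and replication genes had 55 tested, none higher and 10 lower, with a median of -0.04, and cyclin E (cye-1) and plk-3 were among the lower. In these families 0 genes were lower in the recentred test. Yolk protein genes differed from one to the next: vit-1 was called lower at a recentred -0.95 (implied SE 0.52), while vit-2, vit-4, vit-5 and vit-6 had 1.10, 0.73, 0.65 and 0.64 and vit-3 -0.08, with no call. The RNAs of rme-2, the yolk receptor, puf-5, cbd-1 and egg-1, all markers of oocytes, lay between -0.20 and 0.08 of the median gene and were not called.

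The 31 tested histone genes had a median of 0.88. Of these, 3 were called higher (9.68%) and 2 lower (6.45%), against 3.12% and 13.6% of all tested genes. All 3 higher ones encode linker histones of the H1 class. The gene his-24 had 200 and 1518 FPKM (wild type, then RNAi) by the authors' deposited table, hil-4 had 655 and 1542 FPKM there and hil-3 had 107 and 276 FPKM. The recentred test added the linker genes hil-2 and hil-5 and the core gene his-35. The lower ones were his-37 and his-59, with recentred values of -0.88 (implied SE 0.64) and -1.18 (implied SE 0.76). The core histone genes are near-identical copies whose messages mostly lack a poly(A) tail in animals, and 49 of the 80 histone rows had no test.

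Ribosomal protein genes of the cytosol held the largest share of the RNA of any family, 41.1% of the summed FPKM in wild type and 48.1% in RNAi. Their own summed FPKM differed little, at 1.0266e+06 in wild type and 1.0465e+06 in RNAi. The sum over all rows was lower in RNAi, at 2174678 against 2496101, so most of the rise in share came from that lower total. Of 81 tested 10 were called higher (12.3%, against 3.12% of all tested genes) and none lower. The median recentred log2 fold change was 0.71, and 74 of the 81 lay above the median gene. In the recentred test 22 were higher and none lower. The gene rla-1, which encodes the P1 protein of the ribosomal stalk, went from 2528 to 22745 FPKM by the authors' deposited table, a recentred 4.07 (implied SE 0.56), at a locus shared by 3 genes. Its stalk partner rplp-2.1 went from 3963 to 18761 FPKM there, a recentred 3.14 (implied SE 0.49), at a locus of its own. Others called higher were rpl-25.1, rpl-26, rpl-41.1 and rpl-11.1, with recentred values from 2.64 to 3.53. Mitochondrial ribosomal protein genes did otherwise, with a median of -0.08, 2 called higher and 15 lower of 67 tested. The higher ones were tag-264 and mrpl-17, and the most significant of the lower ones was mrpl-19, at 85.6 and 16.6 FPKM (wild type, then RNAi) by the authors' deposited table. No member of that family was lower in the recentred test.

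The rest of this group gave mostly lower calls around a median near 0, as did all tested genes, of which 13.6% were called lower and 3.12% higher. Translation factors had 39 tested, 1 higher (eif-3.I) and 8 lower, among them the initiation factor genes eif-3.F, eif-2alpha and ifg-1, with a median of -0.08. Aminoacyl-tRNA synthetases had 33 tested, none higher and 2 lower (iars-1 and fars-3), and their median was 0.09. Proteasome subunits had 32 tested, none higher and 10 lower (31.2%), with a median of 0.08. Chaperones had 60 tested, 1 higher and 14 lower (23.3%), and a median of -0.08. Here the prefoldin subunits moved apart: pfd-2 went from 48.1 to 155 FPKM and pfd-3 from 310 to 76.4 FPKM by the authors' deposited table, at recentred values of 2.59 (implied SE 0.50) and -1.12 (implied SE 0.50). The chaperonin subunit gene cct-3 was called lower at -1.13 (implied SE 0.48). F-box and MATH-BTB adaptor genes, a large nematode class of substrate adaptors, had 78 tested of 533, none higher and 12 lower, with a median of -0.03. In none of these families was any gene lower in the recentred test.

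**Figure D5:**
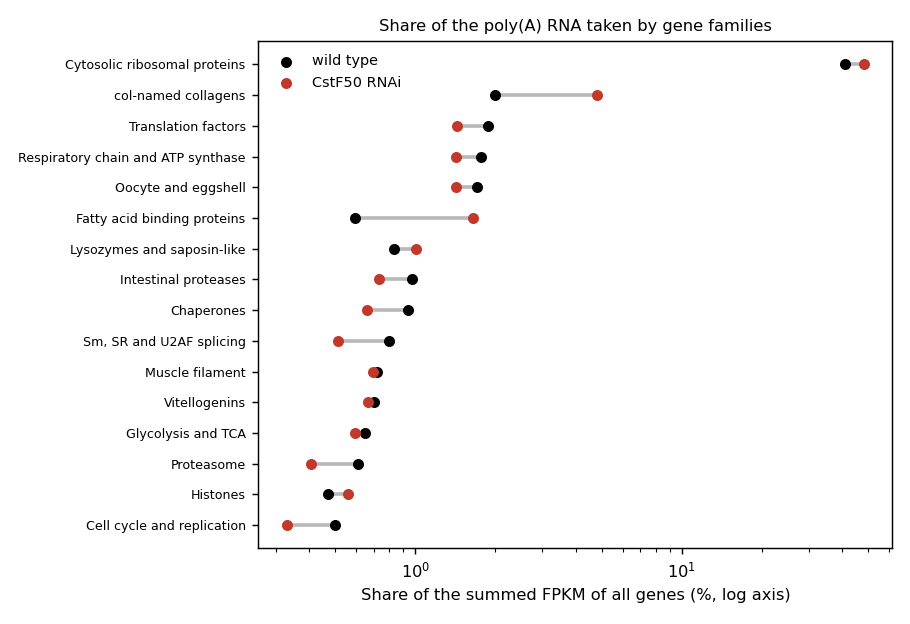
Percent of the summed FPKM of all genes (log axis) held by 16 gene families in wild type (black) and CstF50 RNAi (red). Ribosomal proteins go from 41.1% to 48.1%, collagens named col from 2.00% to 4.81% and fatty acid binding proteins from 0.596% to 1.65%, each with 1 value per group and no error.

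Of 17 tested genes for other 3' end processing factors, only cpsf-2, a CPSF subunit, was called, at 31.02 and 10.9 FPKM (wild type, then RNAi) by the authors' deposited table, a recentred -0.61 (implied SE 0.50). The family median was 0.12. Fip1 (fipp-1) and Clp1 (clpf-1), which act in polyadenylation and in cleavage, had recentred values of 2.78 (implied SE 0.95) and 2.72 (implied SE 1.36) and passed no test. The gene tag-214 (rbpl-1 in RefSeq) had 20.4 and 38.6 FPKM (wild type, then RNAi) by the authors' deposited table and was not called by the authors' q-value. Its recentred 1.82 (implied SE 0.47) passed the recentred test as higher (adjusted p of 0.00362). The exonuclease gene xrn-2, which acts in transcription termination, had 1.02 and was not called. Among the 12 RNA polymerase II subunits rpb-7 stood out. It encodes a subunit of the polymerase stalk and went from 56.1 to 447 FPKM by the authors' deposited table, at a locus of its own on chromosome I from 3031214 to 3032940 (ce10). Its recentred log2 fold change was 3.89 (implied SE 0.48, q = 2e-07), whereas the other stalk subunit, rpb-4, had 0.63 (implied SE 0.48) and was not called. In the rRNA-depleted libraries rpb-7 had normalized counts of 699 in condition A and 424 in B by the authors' deposited table. It was not called there (adjusted p of 0.25). The subunits rpb-6, rpb-8, rpb-9 and rpb-12 were called lower at recentred values from -0.89 to -0.61, and none passed the recentred test. Splicing genes (Sm, LSm, SR and U2AF) had 40 tested and a median of 0.24. Of these, 1 was higher (prp-19, recentred 2.18) and 6 were lower (15%, against 13.6% of all tested genes). Among the lower were lsm-1, prp-3 and the Sm gene snr-3, from -1.09 to -0.98.

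Among metabolic families, the energy genes were mostly near the median gene, with single genes apart. Respiratory chain and ATP synthase genes had 49 tested, 1 higher and 5 lower, and a median of 0.15. The higher one was cox-6C, a cytochrome c oxidase subunit gene, from 413 to 2037 FPKM by the authors' deposited table (recentred 3.20, implied SE 0.46), while the complex I gene lpd-5 was called lower at -1.38 (implied SE 0.58). The vacuolar ATPase, the proton pump of acidic compartments, had 9 of 21 subunit genes called lower (42.9%, against 13.6% of all tested genes) and none higher. Its median was -0.20, and no subunit passed the recentred test in either direction. The proteolipid gene vha-2 had 2706 and 779 FPKM (wild type, then RNAi) by the authors' deposited table, a recentred -0.90 (implied SE 0.47). Glycolysis and TCA genes had 43 tested and a median of 0.41. The 2 called higher act in the glyoxylate cycle and gluconeogenesis, gei-7 at 28.7 and 130 FPKM and pck-1 at 87.1 and 285 FPKM by the authors' deposited table. The 3 lower included the glycolytic gpd-1 and gpd-4, at -0.61 and -0.72.

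Lipid families leaned above the median gene, and this was not particular to them. Tubulin genes (median 0.68), C-type lectin genes (0.59) and glycolysis and TCA genes (0.41) did so too, while other families lay at or below it. Fatty acid breakdown and lipase genes (39 tested, 2 higher, 1 lower) had a median of 0.59. Fatty acid synthesis genes (17 tested, 1 higher, 2 lower) had a median of 0.51. Among all tested genes 3.12% were called higher and 13.6% lower. The acyl-CoA synthetase genes acs-2 and acs-4 were called higher at recentred values of 3.52 (implied SE 0.85) and 2.22 (implied SE 0.46). The desaturase gene fat-2 was higher at 2.49 (implied SE 0.46). The elongase gene elo-5 and the Mediator subunit gene mdt-15, a regulator of lipid genes, were called lower at -1.68 and -1.02 and did not pass the recentred test. Fatty acid binding proteins (15 tested, median 0.41) had 2 called higher and 2 lower. The secreted far-2 and far-3 were called higher, far-3 from 34.9 to 830 FPKM by the authors' deposited table (recentred 5.47, implied SE 0.80). The intracellular lbp-4 and lbp-6 were called lower, at -1.07 (implied SE 0.54) and -0.83 (implied SE 0.47), and did not pass the recentred test. Of the 8 tested lbp genes 2, lbp-2 and lbp-9, passed it as higher and none as lower.

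Detoxification genes were mostly not called, as were genes of all kinds, of which 3.12% were called higher and 13.6% lower. Of 29 glutathione S-transferase genes 2 were higher and 5 lower, with a median of 0.05. The gene gst-4 went from 6.53 to 30.7 FPKM by the authors' deposited table (recentred 3.13), and gst-27 from 325 to 35.3 FPKM there, a recentred -2.30 (implied SE 0.62) that passed the recentred test. Cytochromes P450 had 13 tested of 81 and 1 call, cyp-35C1, lower at -2.28 (implied SE 0.64) in both tests. UDP-glucuronosyltransferases had 16 tested, with ugt-58 higher and ugt-12 and ugt-22 lower. Among the superoxide dismutase, catalase and metallothionein group of 20, both mitochondrial superoxide dismutase genes were called, in opposite directions. The inducible sod-3 went from 0.796 to 16.4 FPKM by the authors' deposited table (recentred 5.26, implied SE 1.03), and sod-2 from 483 to 109 FPKM there (recentred -1.25, implied SE 0.55, not lower in the recentred test). The ferritin gene ftn-1 was higher at 3.32 (implied SE 0.91).

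Defence genes were mixed, and their calls stand beside 3.12% higher and 13.6% lower among all tested genes. C-type lectin genes had 36 tested of 265, 3 higher and 5 lower, with a median of 0.59. The 3 higher were clec-48, clec-49 and clec-50, all on chromosome V, at recentred values of 3.92, 3.77 and 3.44, while clec-190 and clec-222 were lower in both tests at -2.63 and -2.74. Lysozyme and saposin-like genes had 33 tested, 5 higher and 2 lower, with a median of 0.41. In the authors' deposited table spp-5, a pore-forming antibacterial peptide gene, went from 1252 to 5394 FPKM and lys-7 from 189 to 634 FPKM, while spp-4 went from 590 to 117 FPKM. Caenacins and related antimicrobial peptides had 31 tested, 3 higher (nlp-34, cnc-6 and nlp-27) and 4 lower (nlp-28, fipr-1 and cnc-10 among them), with a median of 0.19. The nlp-27 and nlp-28 genes, from the same antimicrobial cluster, had recentred values of 2.49 (implied SE 0.49) and -1.42 (implied SE 0.58), and nlp-28 did not pass the recentred test (adjusted p of 0.155). RNAi and small RNA pathway genes had 45 tested, none higher and 6 lower, with a median of -0.19. Among them was rde-1, the Argonaute needed for RNAi from outside, at 21.3 and 5.34 FPKM (wild type, then RNAi) by the authors' deposited table (recentred -1.10, implied SE 0.53). None of the 6 passed the recentred test.

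Muscle filament genes had 34 tested and a median of 0.36. Of these 1 was higher (2.94%) and 6 were lower (17.6%), against 3.12% and 13.6% of all tested genes. Troponin genes lay at both ends: unc-27, a body wall troponin I gene, was higher at 2.54 (implied SE 0.45), and tnc-2, a pharyngeal troponin C gene, was lower at -2.19 (implied SE 0.63) in both tests. Pharyngeal myosin (myo-2) was called lower at -1.55 (implied SE 0.61). Neuropeptide and insulin genes had no higher call and 7 lower ones (6.73%), below the share of all tested genes. The 97 others were not called, the median was 0.09, and flp-22 was the most significant of the lower ones. Synaptic vesicle and peptide processing genes had 12 tested, none higher and 3 lower (25%), with a median of -0.55. These were egl-3, a proprotein convertase, unc-26 and ida-1. Intestinal proteases had 20 tested, 3 of them lower (15%), and a median of 0.36. Brush border and intestinal identity genes had 12 tested, 4 lower (33.3%) and a median of -0.59. The peptide transporter gene pept-1 had 16.5 and 1.601 FPKM (wild type, then RNAi) by the authors' deposited table, a recentred -2.47 (implied SE 0.82), and was the 1 member lower in the recentred test. The microvillar actin gene act-5 and the proton exchanger gene nhx-2 had -0.95 and -1.58 and did not pass there. The apical proton pump subunit gene vha-6 of the same cells had 0.95 and was not called.

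Few genes of the transcription factor families formed here were tested, and none of these was called higher, against 3.12% of all tested genes. These families do not hold every such factor. Of the 19 tested genes named ztf, which are outside them, 1 was called higher and 4 lower. Nuclear hormone receptors had 33 tested of 289, 6 lower and a median of -0.57, with nhr-12 at 15.2 and 2.14 FPKM (wild type, then RNAi) by the authors' deposited table. Homeobox, GATA, T-box and bHLH genes had 37 tested of 140, 2 lower (tbx-36 and ceh-58) and a median of -0.28. Their median levels were 6.81 and 8.99 FPKM, and all tested genes of 3 to under 10 FPKM had a median of -0.21. Whether level bears on these family medians was not tested. The 19 tested germline sex determination genes had a median of 0.00, with fem-3 and nos-1 lower and not so in the recentred test. Protein phosphatases and casein kinases had 16 tested, 2 lower and a median of -0.21. One of these, kin-2, the regulatory subunit gene of protein kinase A, was lower at -1.98 (implied SE 0.58) in both tests, at a locus shared by 4 genes. No heterochronic gene was called among 3 tested.

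Markers of cell types moved unevenly. Of the 4 sperm markers msp-3, msp-142 and ssp-9 were called higher and gsp-3 was not, at recentred values from 3.69 to 5.09. Of the 3 proliferating germline markers glp-1 was called lower, at -1.04 (implied SE 0.51), and pgl-1 and glh-1 had 0.51 and 0.05. The molting markers mlt-10 and fbn-1, at most at 3.10 FPKM by the authors' deposited table, were not tested, and noah-1 and dpy-7 were tested and not called, at 0.40 and 0.92. Muscle markers unc-54 and unc-15 had 1.23 and 0.00 and were not called. The muscle marker myo-3, at 6.03 and 1.98 FPKM (wild type, then RNAi) by the authors' deposited table, was not tested. Of the 3 neuronal markers egl-3 was called lower, unc-64 was not called, at -0.52, and rgef-1 was not tested. The intestinal markers elt-2 and ges-1, at most at 4.54 FPKM by the authors' deposited table, were not tested. The 4 sperm markers are themselves members of the sperm families above, so their values add no separate evidence, and the part of sperm number or of the animals' stage was not tested.

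Gene neighbourhood was described because the targeted factor makes 3' ends in operons. For 5846 tested protein-coding genes at a locus of their own, the nearest upstream gene was taken from the Ensembl annotation (WBcel235) by name. With that neighbour on the same strand within 500 bases, a spacing typical of operons, 1121 genes had a median recentred log2 fold change of -0.05, with 2.77% called higher and 18.6% lower. Within 500 bases on the opposite strand 574 genes had a median of 0.03, with 4.53% higher and 20.6% lower. Where the same-strand neighbour lay within 2000 bases and had at least 16 times the gene's wild-type FPKM, 14 of 121 genes (11.6%) were called higher, against 3.13% of 1951 genes with a weaker neighbour. With such a strong neighbour on the opposite strand it was 7 of 87 genes (8.05%), against 5.06% of 1324. A low wild-type value of the gene itself defines the class with a strong neighbour, so part of its higher share is built in, and the 2 strands were not tested against each other.

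The rRNA-depleted libraries give a second look at the same genes. In the authors' deposited table for them the conditions are headed A and B alone, and no treatment is assigned to either. Of the 8446 genes in both tables, 7.98% were called higher in B there and 5.11% lower. Among the 266 genes higher in poly(A) RNA from RNAi animals, 161 (60.5%) were called higher in B and 4 lower. Without collagen and sperm genes it was 88 of 188 (46.8%). Of the 1158 lower in poly(A) RNA, 139 (12%) were lower in B and 32 higher, and of the 42 that were lower in the recentred test 20 (47.6%) were lower in B. The shared genes made up 23.9% of the 674 higher in B and 32.2% of the 432 lower in B.

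The families differed in how far this held. All 13 major sperm protein genes, all 18 other sperm genes and all 6 body-shape collagens called higher in poly(A) RNA were called higher in B, as were 37 of the 42 col genes. Outside the collagen and sperm families, 88 of the 188 genes called higher in poly(A) RNA were called higher in B. Of the 10 cytosolic ribosomal protein genes among those 188, none was called in either direction in B. Some of the others also lacked a call there, but 88 were called higher. Of all 81 tested genes of that family 1 was higher and 11 lower in B. The median log2 ratio of B over A was 0.90 for the 188 genes, -0.10 for those 10 among them and -0.23 for the 81. The tables were normalized and tested separately, so this difference itself was not tested.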

How the data were processed

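Poly(A)-selected RNA was sequenced from 2 libraries per group. Per the file headers, the authors' deposited table gives 1 FPKM per gene and group, a test statistic and the p-value and q-value of a test whose column layout is that of Cuffdiff. The test statistic, a score computed by the authors, had the size of the normal deviate of the p-value (largest gap in p 2.64e-06) and the sign opposite to the fold change. The deposited rRNA-depleted table gives, per the file headers, mean normalized counts of conditions A and B with p-values and adjusted p-values. Per the submitters' processing notes, Bowtie, DESeq and the build ce10 were used, and no version is named. The annotation was not given in the sources used here. Depth is unknown, and the number of libraries limits the precision.

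Groups came from the sample titles. The log2 fold change was computed from the FPKM values, its implied SE as its size over that of the test statistic, and the recentred test as the normal deviate of (log2 fold change minus the median) over the SE, with Benjamini-Hochberg adjustment over 8244 genes. The threshold was 0.05 throughout. The q-values equal such an adjustment over the 8513 tested rows (largest gap 3.43e-06). Level ranges use the geometric mean of both groups. Names absent from the table came from RefSeq (WBcel235) by locus tag, which matched 99.0% of tested rows. Coordinates (ce10, 1-based) are those of the loci in the authors' table. Families were formed from name patterns, and a few patterns were corrected once the names in the table had been seen. The members and lists were chosen with earlier results of these data known. Named genes are the 12 highest and 12 lowest called, the 8 most abundant called each way, up to 3 called members per family and direction by q-value, and the CstF subunits. Other members named, such as those not called, were chosen after their values were seen. The recentred test was tested on simulated data with errors drawn from the implied SE. It called 40 of 100 genes given a log2 change of 2 in either direction and 90 of 100 given a change of 4. Of 8044 genes given no change it called 7. Python 3.11.15, numpy 2.4.6, pandas 2.3.3, scipy 1.17.1 and matplotlib 3.10.9 were used. Alternatives covered the threshold, zero point, pseudocount (1 FPKM), filters on low values, shared loci and the rows adjusted over. Mature, promoter and protein sequences were not used here.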

Additional observations from a re-analysis of the deposited data

Results flagged for a closer look

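Among the 19 rows whose test had ended with the status FAIL, all outside the comparison, 3 had RNAi values more than 2-fold above wild type. These 3 are listed because a signal above the control group appeared in rows that no test covers. Rows of this status with lower values in RNAi were not looked for. The ribosomal protein gene rps-3 stood at 1973 FPKM in wild type and at 10431 FPKM in RNAi animals by the authors' deposited table. The ribosomal protein gene rpl-31 stood at 7093 FPKM in wild type and at 17974.5 FPKM in RNAi animals by the authors' deposited table, and the complex I gene nduv-3 at 599 and at 1393.22 FPKM. These values have no error and no p-value, and they do not enter the family counts of tested genes. The values of rps-3 and rpl-31 are, however, part of the share of the summed FPKM given for cytosolic ribosomal protein genes.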

How the results depend on the processing

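The counts of called genes depended on the threshold, the zero point and the rows adjusted over. Of 1427 calls (266 higher, 1161 lower), 500 were left at a q-value under 0.01 (140 and 360), 492 when the adjustment covered all rows of the table (139 and 353), and 507 passed the recentred test (465 and 42). Rows without a test enlarge the second adjustment, so that loss is partly built into it. Leaving out rows under 1 FPKM, keeping 1 row per locus, or keeping loci with 1 gene of 1 FPKM or more (the last chosen after seeing the data) left these counts within 1.5 times. Under each alternative run for it, the median log2 fold change moved by less than 0.1, and the count of families with a median beyond 1 and the shares found in the rRNA-depleted table stayed within 1.5 times. Of 186 results for single genes under an alternative, 80 kept their side of the threshold, and the recentred test was passed by all 61 named genes called higher and by 16 of the 122 called lower. Of 144 results for the medians of single families under an alternative, 130 stayed within 0.1 of the reported value and 14 moved by more, most often with a pseudocount of 1 FPKM. The medians by level moved with the level that sets the range. With wild-type FPKM they were 3.65 at 1 to under 3 FPKM, 0.25 at 3 to under 10, -0.12 at 30 to under 100 and 0.01 at 100 or more. With RNAi FPKM they were -1.10, 0.13 and 0.46 at 1 to under 3, 30 to under 100 and 100 or more. With a pseudocount of 1 FPKM the lowest 2 ranges had 3.31 and -0.11. The median of chromosome X was 0.06 with genes of at least 10 FPKM, against -0.06. The cause of these shifts was not tested. No paired analysis was possible because the columns hold 1 value per group and carry no replicate numbers, and for the same reason no library could be left out in turn.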
